A study of Mus musculus with 4 samples.

Results

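The POU domain factors are transcription factors, and 7 of their genes were examined in mouse embryonic cerebral cortex at E15, with Lhx2 cKO against control as the only contrast. They are the 4 class III genes Pou3f1, Pou3f2, Pou3f3 and Pou3f4, and 3 genes of other classes, Pou2f1, Pou2f2 and Pou6f1. They were chosen by symbol, and all 7 were among the 13289 genes of the deposited count table. Bulk RNA-seq of polyadenylated RNA was done on 2 control libraries, titled WT, and 2 libraries of Lhx2 cKO, read here as conditional knockout. The tissue was fresh in both groups. The Cre driver, the allele, the strain, the deleted exons and the number of embryos behind a library are not given in the sources used here, so which cells lost Lhx2 is not known here. Nothing in the labels says that the libraries of a group came from separate embryos, so the spread behind the p-values may be technical. In the main test, that spread is the one between these libraries, pooled largely over all genes rather than taken from each gene alone.

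POU factors bind DNA with a POU-specific domain and a POU homeodomain joined by a linker, and many bind the octamer and related sites. The class III genes are expressed mainly in the nervous system. In the cortex Pou3f2 (Brn2) and Pou3f3 (Brn1) act partly redundantly in the production, migration and upper-layer identity of projection neurons, often beside SOX partners. Pou2f1, by contrast, is expressed in most cell types, Pou2f2 is best known from B lymphocytes, and Pou6f1 is expressed widely in the brain. Lhx2 encodes a LIM-homeodomain factor of cortical progenitors.

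How closely the genes are related can be read from the coding sequence of the end of the homeodomain, which holds the helix that contacts the major groove. The 63 bases below were read from the GENCODE M21 transcripts (GRCm38) and are shown because they carry both the likeness and the differences within the family. Capitals mark bases that differ from Pou3f3.
Pou3f3: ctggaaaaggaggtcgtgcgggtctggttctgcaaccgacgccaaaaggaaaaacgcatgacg
Pou3f1: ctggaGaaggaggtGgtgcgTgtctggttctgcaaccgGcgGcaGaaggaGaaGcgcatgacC
Pou3f2: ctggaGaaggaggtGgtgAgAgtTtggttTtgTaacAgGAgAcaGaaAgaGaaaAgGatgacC
Pou3f4: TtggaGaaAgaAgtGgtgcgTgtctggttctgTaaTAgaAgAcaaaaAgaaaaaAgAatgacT
Pou2f1: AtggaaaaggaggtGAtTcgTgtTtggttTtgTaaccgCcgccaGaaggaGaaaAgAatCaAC
Pou2f2: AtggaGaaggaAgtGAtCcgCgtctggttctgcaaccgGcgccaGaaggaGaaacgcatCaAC
Pou6f1: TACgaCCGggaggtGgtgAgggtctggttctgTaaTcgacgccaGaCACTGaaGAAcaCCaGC

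Over the 180 bases that code for the homeodomain, the class III genes were 77.2% to 84.4% identical to each other, with Pou3f1 and Pou3f3 the closest pair. Pou2f1 and Pou2f2 were 76.7% identical. Pou6f1 was the most distant, at 52.2% to 60.0% against the other 6 genes. Despite this likeness, 0 stretches of 50 bases were shared between any of the 7 genes in the M21 transcripts, so a read that matches exactly over 50 bases or more belongs to 1 member only.

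The class III genes have 1 exon each in M21, on chromosome 4 for Pou3f1 and Pou3f2, chromosome 1 for Pou3f3 and chromosome X for Pou3f4. Pou2f1 (chromosome 1), Pou2f2 (chromosome 7) and Pou6f1 (chromosome 15) have up to 17, 15 and 11 exons in a transcript. Of the stretches of 50 bases in Pou2f1, 17.0% also occur in transcripts of other genes on either strand, mainly Cd247, whose gene overlaps its end on the opposite strand. For Pou3f1 the share was 7.42%, all of it from the antisense gene Gm2164. It was below 1% for the other 5 members. Neither Cd247 nor Gm2164 was among the genes analysed here, and the use of strand in counting is not given in the sources used here, so reads from these partners cannot be told apart from those of Pou2f1 and Pou3f1.

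Total counts were 22294237 to 24609627 per library. The targeted gene Lhx2 was at 316 and 287 CPM (counts per 1000000 counts, scaled with TMM factors) in control and at 239 and 247 CPM in Lhx2 cKO. The quasi-likelihood test of edgeR put its log2 fold change at -0.31 ± 0.098 (SE; adjusted p 0.0191). Since the deleted exons are unknown, this level does not measure how much functional Lhx2 remained. An adjusted p under 0.05 in that test, over 13288 genes, is named a call here. Of those genes 20.8% were called, 9.17% lower and 11.6% higher in Lhx2 cKO. Over all tested genes the median log2 fold change was 0.0034.

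Among the POU genes, 4 of 7 were called, and all 4 of these fell. Pou3f1, Pou3f2 and Pou3f4 were the class III genes among them and Pou2f1 was the other. The median log2 fold change of the 7 genes was -0.46, the value of Pou2f1. Pou3f3 lay just outside the threshold, Pou6f1 was lower in both Lhx2 cKO libraries without a call, and Pou2f2 had overlapping groups. For 6 of the 7 genes the Lhx2 cKO libraries both lay below both controls. This held for 29.1% of all tested genes, and groups that did not overlap in either direction were found for 59.3% of them.

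**Figure D1:**
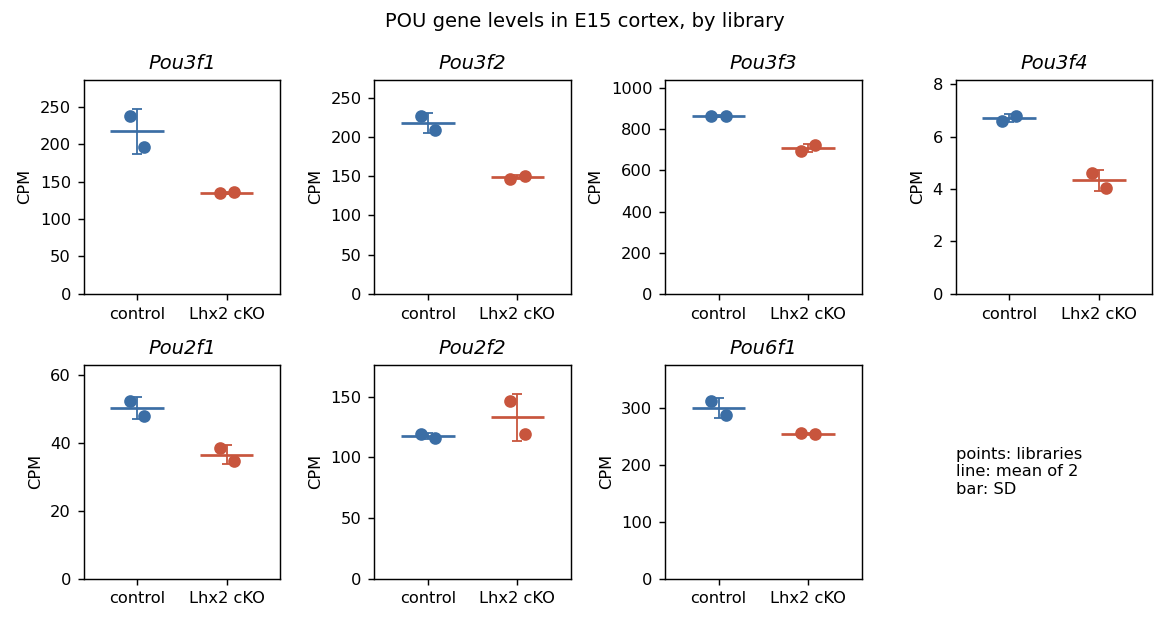
Level of each POU gene in CPM (vertical axes from 0, scaled per gene) in the 2 control and 2 Lhx2 cKO libraries; points are libraries, lines the mean of 2 and bars the SD. Pou2f2 is the gene whose groups overlap, and the other 6 have both Lhx2 cKO libraries below both control libraries.

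Pou3f1 (Oct6), a regulator of Schwann cell myelination that is also expressed in cortical projection neurons, had 238 and 196 CPM in control and 134 and 136 CPM in Lhx2 cKO. These groups did not overlap, and the control libraries lay further apart than the Lhx2 cKO libraries. Its mean fell from 217 ± 29.9 to 135 ± 0.969 CPM (SD, n = 2), to 62.1% of control. The log2 fold change was -0.69 ± 0.10 (SE; edgeR adjusted p 1.13e-06), and 3.02% of tested genes had a lower one. Without control 1, the higher of the controls, the log2 fold change was -0.55, and without control 2 it was -0.82.

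Pou3f2, a neurogenic factor that is also used to turn fibroblasts into neurons, had 227 and 208 CPM in control and 147 and 151 CPM in Lhx2 cKO. The libraries within each group were close and the groups stood well apart. Its mean fell from 218 ± 13.4 to 149 ± 2.45 CPM (SD, n = 2), to 68.3% of control. The log2 fold change was -0.55 ± 0.096 (SE; edgeR adjusted p 2.61e-05).

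Pou3f3 was the most abundant member. It had 862 and 866 CPM in control and 693 and 723 CPM in Lhx2 cKO, so both Lhx2 cKO libraries lay below the controls. The means were 864 ± 2.94 and 708 ± 21.4 CPM (SD, n = 2), which is 82.0% of control. The log2 fold change was -0.29 (SE 0.11, 95% interval -0.50 to -0.07), and the adjusted p of 0.0504 in edgeR missed the threshold. It passed under DESeq2 (adjusted p 0.00497), limma-voom (0.028) and each other scaling tried. It did not pass without a low-count filter (0.0505) or with a mean count of at least 50 (0.0589), nor in any of the 4 fits without 1 library (0.0967 to 0.19). In the authors' deposited table its adjusted p is 0.0273, with a log2 fold change of -0.30, and the table marks it NS. That mark does not follow the authors' adjusted p alone. Pou3f2 (6.73e-07) and Pou2f1 (0.000619) are also marked NS there, while Pou3f1 (1.51e-09) and Pou3f4 (0.0366) are marked down.

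Pou3f4, the X-linked class III gene, which is required in the inner ear, was the scarcest member. It had 160 and 170 counts in control and 105 and 93 counts in Lhx2 cKO. Counting error alone gave 95% Poisson intervals of 136 to 187 and 145 to 198 counts in control, and of 85.9 to 127 and 75.1 to 114 counts in Lhx2 cKO. The levels fell from 6.70 ± 0.144 to 4.33 ± 0.401 CPM (SD, n = 2), which is a log2 fold change of -0.63 ± 0.23 (SE; edgeR adjusted p 0.0433). The call was lost under DESeq2 (adjusted p 0.0942) and limma-voom (0.0501), and whichever library was left out (0.0671 to 0.237).

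Sex could bear on an X-linked gene, and RNA of both sexes was present in every library. Xist, the RNA that coats the inactive X chromosome, was at 1918 and 1962 CPM in control and at 1598 and 1600 CPM in Lhx2 cKO. The Y-linked gene Eif2s3y was at 52.5 and 57.8 CPM in control and 74.0 and 73.0 CPM in Lhx2 cKO, and rose (log2 fold change 0.41 ± 0.10 SE; edgeR adjusted p 0.00192). Xist was not called (log2 fold change -0.28, adjusted p 0.0803), nor were Ddx3y, Kdm5d and Uty, with log2 fold changes of 0.16, 0.33 and 0.07. The part of these differences in the value of Pou3f4 was not tested.

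Among the genes of other classes, Pou2f1 (Oct1), which takes part in the transcription of histone and small nuclear RNA genes, had 52.5 and 47.9 CPM in control and 38.5 and 34.6 CPM in Lhx2 cKO. Its groups did not overlap. The mean fell from 50.2 ± 3.26 to 36.6 ± 2.82 CPM (SD, n = 2), to 72.9% of control, with a log2 fold change of -0.46 ± 0.11 (SE; edgeR adjusted p 0.00125).

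Pou6f1 (Brn5), a factor of the developing and adult brain, had 313 and 287 CPM in control and 255 and 255 CPM in Lhx2 cKO. The Lhx2 cKO libraries lay below both controls, but the log2 fold change of -0.23 (SE 0.097, 95% interval -0.43 to -0.04) had an adjusted p of 0.0815 in edgeR. It stayed uncalled in each of the 11 settings with all libraries, where adjusted p ranged from 0.0514 to 0.103.

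Pou2f2 (Oct2) was the member with the higher mean in Lhx2 cKO. It had 120 and 116 CPM in control and 147 and 119 CPM in Lhx2 cKO. The second Lhx2 cKO library lay within the controls' range and the first above it. The log2 fold change was 0.17 (SE 0.099, 95% interval -0.03 to 0.37, adjusted p 0.229 in edgeR), and it ranged from 0.01 without Lhx2 cKO 1 to 0.31 without Lhx2 cKO 2.

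**Figure D2:**
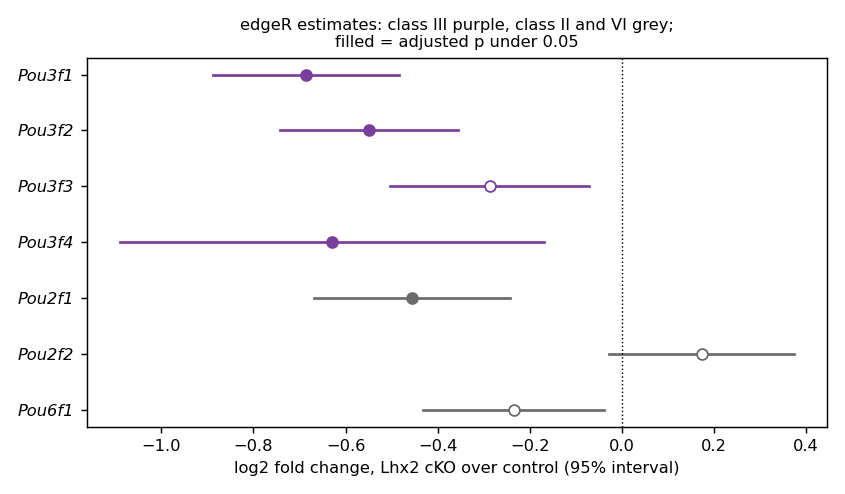
Estimated log2 fold change of Lhx2 cKO over control for each POU gene with its 95% interval, class III in purple and the others in grey; filled points passed an adjusted p of 0.05. Pou3f1 is lowest at -0.69, Pou2f2 is the point above 0, and the interval of Pou3f4 is the widest.

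The class III genes were compared as a group with Pou2f1, Pou2f2 and Pou6f1 by levels per gene length (RPKM, here the CPM per kilobase of the deposited length). By mean RPKM in control the order was Pou3f3 (112 ± 0.380), Pou3f1 (56.5 ± 7.77), Pou6f1 (43.1 ± 2.62), Pou3f2 (39.0 ± 2.39), Pou2f2 (14.3 ± 0.289), Pou2f1 (3.02 ± 0.196) and Pou3f4 (2.29 ± 0.0491; SD, n = 2 each). Pou6f1 and Pou3f2 were close in control without overlap: the lower Pou6f1 library, at 41.3 RPKM, lay above the higher Pou3f2 library, at 40.7 RPKM. In Lhx2 cKO, Pou6f1 was at 36.7 RPKM in both libraries and Pou3f1 at 34.9 and 35.3 RPKM. At the deposited lengths these neighbours thus stood in the opposite order. The deposited length of Pou2f1, 16597 bases, exceeds the longest M21 transcript of 13050 bases. That of Pou6f1 is 6949 against 4953 bases and that of Pou2f2 8243 against 7095, while those of Pou3f1 and Pou3f2 match. A length that joins exons of several transcripts lowers the RPKM of genes with many transcripts. The place of Pou6f1 in the order, and the level of the sums and ratio below, therefore depend on the length used.

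Summed over the 4 class III genes, the level was 216 and 203 RPKM in control and 152 and 157 RPKM in Lhx2 cKO, which is 73.9% of control by the means. The sum of Pou2f1, Pou2f2 and Pou6f1 was 62.7 and 58.3 RPKM in control and 56.8 and 53.2 RPKM in Lhx2 cKO, or 90.9%. The ratio of the class III sum to the other sum within each library was 3.45 and 3.48 in control, against 2.68 and 2.96 in the Lhx2 cKO libraries. Its groups did not overlap. No p is given for these sums, and 2 libraries against 2 allow no exact permutation p under 0.05.

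The lower ratio was not a split between all class III genes and all others. Pou2f1 had a log2 fold change of -0.46, between those of Pou3f2 and Pou3f3, and the interval of Pou6f1 overlapped those of Pou3f3, Pou3f2 and Pou3f4. The sum of the other classes is mostly Pou6f1, with 71.3 ± 0.669% (SD, n = 2) of it in control. Pou2f1, the member expressed in most cell types, contributed 5.04% and 4.95% in the control libraries. The ratio therefore does not set brain genes against widely expressed ones.

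The class III genes also differed among themselves in these libraries. The share of Pou3f3 in the class III sum was 51.5% and 55.3% in control, against 58.8% and 59.5% in Lhx2 cKO. The ratio of Pou3f1 to Pou3f3 was 0.556 and 0.455 in control against 0.390 and 0.377 in Lhx2 cKO, and that of Pou3f2 to Pou3f3 was 0.365 and 0.333 against 0.294 and 0.288. In neither ratio did the groups overlap, nor in those of Pou3f4 (79% of control by the means) and Pou2f2 (138%) to Pou3f3. In the ratios of Pou2f1 (89%) and Pou6f1 (104%) to Pou3f3 the groups overlapped. Groups without overlap are common in these libraries, being found for 59.3% of single genes tested. The ratio of Pou2f1 to Pou2f2, the members of class II, was 0.218 and 0.204 in control against 0.130 and 0.144 in Lhx2 cKO. These differences between members were not tested.

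**Figure D3:**
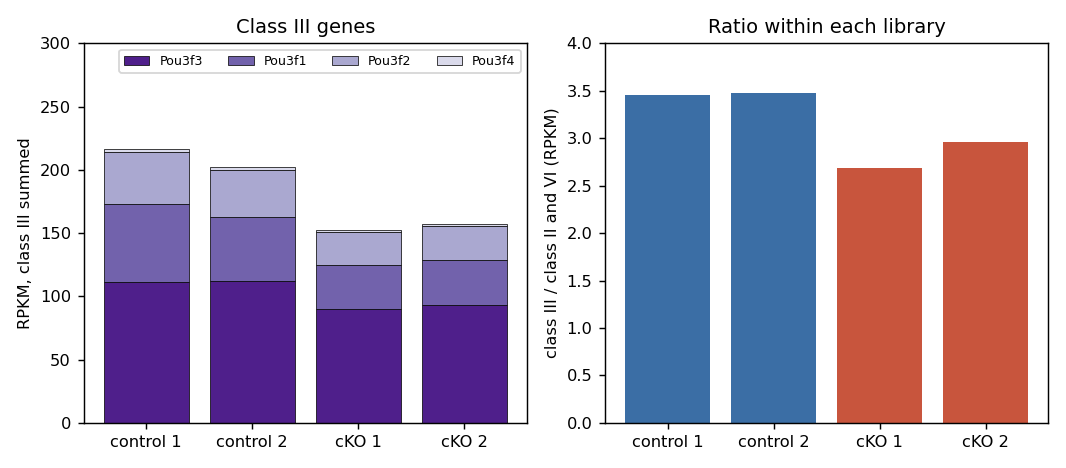
Left, RPKM of the 4 class III genes stacked for each library; right, the ratio of the class III sum to the sum of Pou2f1, Pou2f2 and Pou6f1 in each library, with both axes starting at 0. The stacks reach 216 and 203 RPKM in control and 152 and 157 RPKM in Lhx2 cKO, and the ratio is above 3.4 in both control libraries and below 3.0 in both Lhx2 cKO libraries.

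In bulk tissue, fewer cells of a type and less RNA per cell cannot be told apart. Markers of several cell types also differed between the groups, some lists mostly falling and others mostly rising. Rises and falls of markers are calls, against 9.17% called lower and 11.6% called higher among all tested genes. Of 7 intermediate progenitor markers 5 fell and 0 rose, with a summed level of 818 to 826 CPM in control and 493 to 508 CPM in Lhx2 cKO. Eomes fell most by p, with a log2 fold change of -1.66 ± 0.096 (SE; edgeR adjusted p 5.51e-17). Of 11 radial glia markers 5 fell and 1 rose, with sums of 878 to 927 and 806 to 830 CPM. Pax6 (-1.24), Notch1 (-0.72), Sox9 (-0.73) and Emx2 (-0.55) were the falls of smallest p, as log2 fold changes. The sums also hold the more abundant Vim and Fabp7, with higher means in Lhx2 cKO but no call, and Slc1a3, which rose (0.27). The part of these cells in the POU gene values was not tested.

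Markers of the neurons in which Pou3f genes are best known did not move one way. Of 10 upper-layer markers 3 rose and 3 fell, with a summed level of 1710 to 1812 CPM in control and 1810 to 1835 CPM in Lhx2 cKO. Cux1 (-0.48) and Inhba (-1.39) fell, while Mdga1 (0.48) and Rorb (0.63) rose, as log2 fold changes. Of 8 pan-neuronal markers 2 rose and 2 fell, with sums of 5629 to 5807 and 5862 to 6150 CPM. Deep-layer markers gave 2 rises and 1 fall of 10. Microglia markers rose in 7 of 9 cases, with 1 fall, from sums of 120 to 121 CPM to 232 to 258 CPM, and oligodendrocyte precursor markers in 5 of 6, with 0 falls, from 46.9 to 53.6 CPM to 87.9 to 96.5 CPM. Cajal-Retzius markers rose in 3 of 5 cases, with 0 falls, from sums of 282 to 311 CPM to 417 to 534 CPM. Vascular markers gave 4 rises and 1 fall of 6 (control sums 172 to 194 CPM, Lhx2 cKO sums 217 to 247 CPM), and interneuron markers 2 rises and 0 falls of 7 (208 to 242 and 281 to 289 CPM). Red blood cell markers gave 4 falls and 1 rise of 5, with sums of 1521 to 2085 and 1182 to 1331 CPM.

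Of 18 genes listed as partners and cofactors of POU factors, 17 were tested, of which 0 rose and 5 fell, with a median log2 fold change of -0.14. Among all tested genes, 9.17% were called lower and 11.6% higher. Sox3, a SOXB1 factor of neural progenitors, fell from 26.0 ± 8.17 to 10.04 ± 1.58 CPM (SD, n = 2), which is a log2 fold change of -1.37 ± 0.16 (SE; edgeR adjusted p 1.96e-08). The coactivator Ep300 had -0.36, the small nuclear RNA activating subunit Snapc1 -0.43 and the host cell factor Hcfc1, a partner of Pou2f1, -0.32. The fifth was Zfp143 (-0.43), named after its values were seen. Sox2 and Sox11, the SOX genes most often paired with Pou3f2, were not called, with levels of 39.8 and 44.4 CPM for Sox2 in control and 41.0 and 37.0 CPM in Lhx2 cKO, and a log2 fold change of -0.29 (adjusted p 0.0849) for Sox11.

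Of 10 genes known to carry POU binding sites in regulatory DNA, 8 were tested, with 2 lower, 1 higher and a median log2 fold change of 0.09. The lists overlap: Nes, Fabp7, Hes5 and Sox2 are also radial glia markers here, and Sox2 is also a listed partner. The fall of Nes is thus counted in both lists. Dll1, a Notch ligand with an enhancer bound by Pou3f2, had 77.3 and 92.3 CPM in control and 59.0 and 61.2 CPM in Lhx2 cKO, and fell (log2 fold change -0.50 ± 0.10 SE; edgeR adjusted p 0.00029). Nes, whose neural enhancer holds a POU site beside a SOX site, had 91.6 and 73.5 CPM in control and 65.0 and 60.2 CPM in Lhx2 cKO, and fell as well (log2 fold change -0.40, adjusted p 0.00438). Gadd45a, a stress gene regulated through Pou2f1, rose from 3.61 ± 0.21 to 5.86 ± 0.641 CPM (SD, n = 2; log2 fold change 0.70, adjusted p 0.0399). These counts stand against 9.17% called lower and 11.6% called higher among all genes.

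Among POU genes outside these 7, Pou5f2 was scarce, with 55 to 76 counts, and was not called (adjusted p 0.474 in edgeR).

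**Figure D4:**
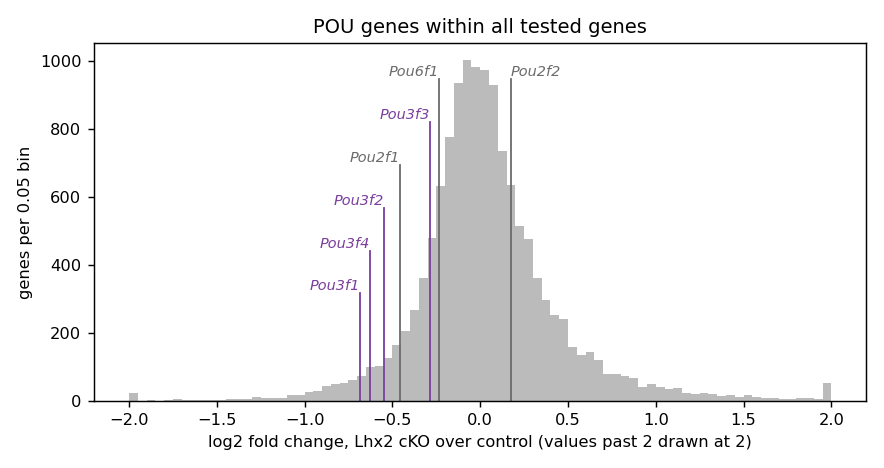
Histogram of the log2 fold change of Lhx2 cKO over control for all tested genes in bins of 0.05, with each POU gene drawn as a line (class III purple, others grey; line height has no meaning). Pou3f1, Pou3f4 and Pou3f2 lie in the lower tail, where 3.02% to 4.94% of genes are lower still, and Pou2f2 lies above 71.5% of genes.

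Neighbouring transcripts were read from M21 within 5000 bases of each member. Gm30731, a noncoding RNA on the opposite strand beside Pou3f2, had 8.78 and 10.6 CPM in control and 6.94 and 6.36 CPM in Lhx2 cKO, and fell (log2 fold change -0.54 ± 0.19 SE; edgeR adjusted p 0.0374), next to -0.55 for Pou3f2. Pantr2, a noncoding RNA downstream of Pou3f3, was not called (-0.19, adjusted p 0.466). Zfp574, the coding neighbour of Pou2f2 on the opposite strand, fell with a log2 fold change of -0.46 (adjusted p 0.00158), while Pou2f2 itself was at 0.17.

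The 250 bases before the start of transcription were available from RefSeq (GRCm38.p6) for 6 of the 7 genes, all but Pou3f1. They are described because most of these genes had lower means in Lhx2 cKO. A link of the sequence to these levels was not tested. The windows of Pou3f2 and Pou3f3 are printed with each match of CCAAT on either strand in capitals; this motif was chosen after the sequences were seen.
Pou3f2, chr4:22488367-22488616, minus strand: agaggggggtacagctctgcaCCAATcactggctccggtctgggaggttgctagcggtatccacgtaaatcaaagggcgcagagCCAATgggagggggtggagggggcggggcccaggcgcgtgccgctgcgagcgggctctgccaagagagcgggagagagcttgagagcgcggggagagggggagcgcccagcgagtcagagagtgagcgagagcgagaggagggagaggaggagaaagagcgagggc
Pou3f3, chr1:42695518-42695767, plus strand: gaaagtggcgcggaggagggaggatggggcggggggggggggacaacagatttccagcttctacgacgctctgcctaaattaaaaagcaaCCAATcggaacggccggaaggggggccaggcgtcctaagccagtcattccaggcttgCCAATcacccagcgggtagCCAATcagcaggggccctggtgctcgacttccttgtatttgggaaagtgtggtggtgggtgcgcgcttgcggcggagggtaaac

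CCAAT occurred 2 times before Pou3f2, 3 times before Pou3f3 and 3 times before Pou3f4. It occurred 0 times in the windows of Pou2f1, Pou2f2 and Pou6f1, although Pou2f1 was called lower as well. Among 32851 windows of the same length, 33.8% held at least 1 match, 10.1% at least 2 and 2.79% at least 3. The octamer ATGCAAAT and the homeodomain core TAATTA, each searched on both strands, had 0 matches in the windows of these 6 genes, against 1.6% and 4.84% of all windows. The motifs do not overlap each other in the printed windows, and a match is a description of letters, not a bound site.

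As a description over only 4 libraries, the genes whose centred log2 CPM lay nearest to each class III gene were found among 9631 genes whose mean reached 10 CPM. They were Tcp11l1, Efs and Mpp7 for Pou3f1 (Euclidean distance 0.0475 to 0.0602 log2 units). For Pou3f2 they were Rpl7a, Tmsb4x and Cks1b (0.0244 to 0.036). For Pou3f3 they were Scaf8, Nelfa and Sik3 (0.0083 to 0.0264), and for Pou3f4 Carmil3, Tipin and Fam107b (0.0246 to 0.0652). With so few libraries such likeness is common: 765 to 907 genes had a Pearson correlation over 0.95 with a given class III gene, since all share the 2 groups.

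**Figure D5:**
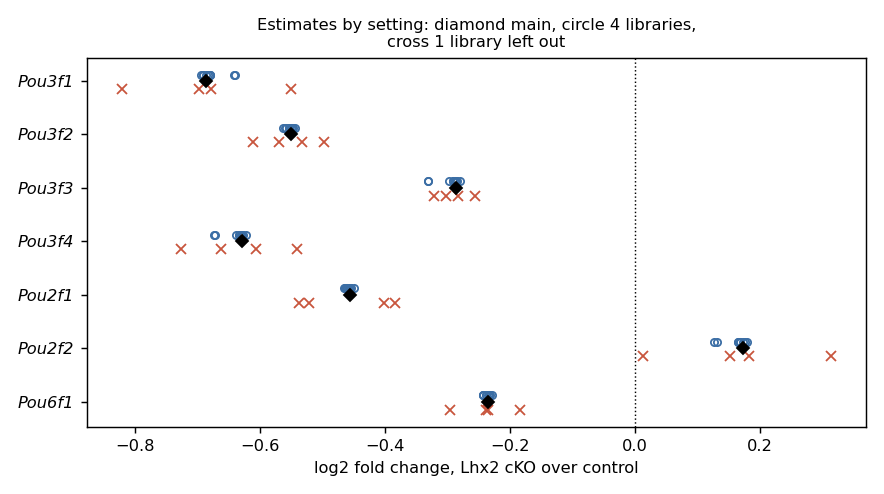
Log2 fold change of each POU gene under every setting run (horizontal axis): diamonds are the values reported, circles the other settings with 4 libraries, and crosses the fits that leave out 1 library. Pou3f1, Pou3f2 and Pou2f1 stay below -0.38 throughout, and Pou2f2 spans 0.01 to 0.31.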

How the data were processed

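The deposited table gives raw read counts per gene, 1 column per library, assigned to groups by library title. Trim Galore, Subread, featureCounts, edgeR and the build mm39 are listed in the submitters' processing notes, without roles; strand, options and annotation are not given in the sources used here. The authors' deposited log2 fold changes and log2 CPM, p-value and adjusted p-value columns, and the -log10 of the adjusted p-value in the same deposited file, were used only where named. No row summed to less than 102 counts, so the table had been filtered before deposit.

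Counts were tested with edgeR 4.0.16 (R 4.3.3): TMM scaling, filterByExpr (minimum 10 counts, which removed 1 gene) and the quasi-likelihood test without covariates, two-sided, with Benjamini-Hochberg adjustment over 13288 genes. The test draws the variance of each gene toward a trend over all genes, with 38.7 prior degrees of freedom in the main fit. SE is the absolute log2 fold change over the square root of F. The code was tested on simulated data. Alternatives used DESeq2 1.42.0, limma 3.58.1 (voom), other scalings and filters, a replicate block, a GC trend and fits without 1 library. Gene lists and members were chosen with earlier results of these data known. Named were all members, Lhx2, the called genes of smallest p in some of the lists (at most 4 each), and the 3 nearest genes per class III gene. Named outside this rule were Sox2, Sox11, Zfp143, Pou5f2, Vim, Fabp7, Slc1a3, Hes5, Xist, Ddx3y, Kdm5d, Uty and the genes that overlap or neighbour a member. Replicates were distinct libraries: their counts differed by more than sampling noise (chi-square over its degrees of freedom, 13.9 in control and 14.3 in Lhx2 cKO). At this depth 3 counts correspond to 0.12 to 0.132 CPM. Intervals on counts cover counting error only, as the reads carry no molecular identifiers in the sources used here. Some listed genes are not reported here.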

Additional observations from a re-analysis of the deposited data

How the results depend on the processing

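Pou3f1, Pou3f2 and Pou2f1 were called in all 11 settings with 4 libraries and in all 4 fits without 1 library, and no POU gene changed direction in any setting run. Pou3f3 crossed the threshold with RLE size factors (-0.29, adjusted p 0.0448), upper-quartile factors (-0.28, 0.0427), library totals alone (-0.30, 0.0353), DESeq2 (-0.29, 0.00497), limma-voom (-0.29, 0.028) and the GC trend removed (-0.33, 0.0335). It did not cross it with no filter (0.0505), under the minimum mean count of 50 (0.0589) or in any of the 4 fits without 1 library (0.0967 to 0.19). Pou3f4 lost its call under DESeq2 (-0.63), limma-voom (-0.63) and an adjusted p under 0.01 (-0.63), and without each library in turn (-0.73 to -0.54). The cause was not tested. Members called numbered 3 to 5 across settings. Genes called numbered 2758, 1697 at an adjusted p under 0.01, which is stricter by construction, and 1633 to 2396 without 1 library, with 1633 without Lhx2 cKO 2 and 1790 without control 1. A fit without 1 library has 1 residual degree of freedom, and its lone library is assumed to vary like the others. The log2 change of the class III RPKM sum was -0.44, and without Pou3f3 it was -0.63; that of its ratio to the other classes was -0.30, and -0.49 without Pou3f3.

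The replicate numbers share only a number: across genes, the deviation of replicate 1 from replicate 2 in control correlated at -0.0063 with that in Lhx2 cKO. The replicate block gave 2874 called genes, and Pou3f3 passed (-0.29, adjusted p 0.0435); with the block and the GC trend removed 2673 were called, and Pou3f3 did not pass (adjusted p 0.0526). The GC alternatives were chosen after seeing the data. Pou3f4 had the largest counting error, 7.67% to 10.4% per library, against at most 3.55% for the other members. The part of counting error in its lost calls was not tested.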
